A study of Mus musculus with 19 samples.

Results

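The 36 genes described here make cholesterol in the liver cell or adjust its sterol supply. They were matched to the count table by gene symbol, from a list drawn up with earlier results of these data known, and all 36 were found among its 24537 genes and passed the filter on low counts. By role they comprise 8 enzymes of the mevalonate and isoprenoid arm, 12 enzymes from squalene to cholesterol, 6 proteins that control the transcription factor SREBP-2, 5 proteins of sterol esterification and movement, and 5 genes of the liver X receptors (LXR) and their sterol targets. Transcripts were counted by RNA sequencing of poly(A) RNA from hepatocytes, the parenchymal cells of the liver, obtained by perfusing the organ. The donors were male wild-type (WT) C57BL/6J mice that carried no other allele and received no agent named in the labels, 10 young animals labelled as 5 months old and 9 old animals labelled as 24 months. On the first of 2 cull days 5 young and 5 old mice were taken, and on the second, 23 days later, 5 young and 4 old mice. Each library is named by its mouse number, and that each is a separate animal rests on the labels.

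Cholesterol is built from acetyl-CoA through mevalonate, isoprenoids, squalene and lanosterol. When sterol in the membrane of the endoplasmic reticulum runs low, SCAP escorts SREBP-2 to the Golgi apparatus, where the site-1 and site-2 proteases (encoded by Mbtps1 and Mbtps2) release its active part, which raises transcription of the enzymes. When sterol is plentiful, INSIG proteins hold SCAP back, excess sterol is esterified or exported, and oxysterols activate LXR, whose targets move sterol out of the cell. The liver is the main organ that makes cholesterol for lipoproteins and disposes of it in bile.

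Libraries held 17381439 to 20287628 counts over genes. Levels are given as CPM, the share of a library's counts set to a common total, after TMM scaling (edgeR's correction of library size for composition) and without a prior count. Some libraries stood apart. Summed CPM of 8 hepatocyte markers was 79944 to 81727 in 3 young libraries of the first cull day (mice 1184, 1186 and 1188) and 123129 to 139026 in the other young mice. The albumin gene Alb made up most of this sum (61168 to 62616 CPM in the 3 libraries). Ttr, the transthyretin gene, was likewise at 3766 to 4196 CPM in them and at 6337 to 9316 CPM in the other young mice, while Hnf4a was highest of the young mice in 1188 and Tat in 1186. In the same 3 libraries 5 cholangiocyte markers summed to 31.0 to 170.3 CPM, against 5.44 to 13.2 in the other young mice. Old mouse 1187 held 3313 CPM of 12 macrophage markers, where the other old mice held 67.96 to 807 CPM and the young mice 100.2 to 486 CPM. By age, at an adjusted p of 0.05 in edgeR's quasi-likelihood test, 12 of 12 macrophage, 8 of 10 endothelial and 9 of 9 stellate cell markers were higher in old mice, and of 8 hepatocyte markers 1 was higher and 4 lower, where 16.3% of all genes tested were higher and 14.5% lower. Endothelial markers summed to 166.7 to 311.6 CPM in young and 175.3 to 589.5 CPM in old mice, and stellate markers to 39.0 to 105.5 CPM and 100.4 to 375 CPM. Without old mouse 1187, 2 of 12 macrophage, 7 of 10 endothelial and 7 of 9 stellate cell markers passed as higher (24.5% of all genes passed in either direction). Without young mice 1184, 1186 and 1188 the counts were 11, 7 and 9 (27.2% of all genes), and without all 4 libraries 12, 7 and 9 (28.3%).

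The comparison of old with young mice, with cull day as a covariate, asked which of the sterol genes differed with age. Of the 36 genes, 7 passed the same threshold, while 30.9% of all 12269 genes tested did (3785 genes). The enzymes contributed 1 of 20 (Pmvk, higher) and the remaining roles 6 of 16. Soat2, Npc2, Abcg1 and Mylip were higher in old mice, and Stard4 and Nr1h3 were lower. Over all genes, 16.3% passed as higher and 14.5% as lower, so that 53.0% of calls were rises, and 64.2% were with library totals alone as scaling. The median log2 fold change of the 20 enzymes was 0.07, with a median size of 0.13 regardless of sign, beside -0.0034 and 0.19 over all genes. At an unadjusted p under 0.05, 4 of the 20 enzymes, 8 of the 16 others and 5193 of all genes were counted. DESeq2 also called 1 enzyme. limma-voom with sample weights, which changes both the tool and the weight of each library, called 7 (Pmvk, Ggps1, Fdft1, Lss, Cyp51, Lbr and Sc5d, each higher). Over all genes weighted limma-voom called 32.6% and DESeq2 33.7%.

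**Figure D1:**
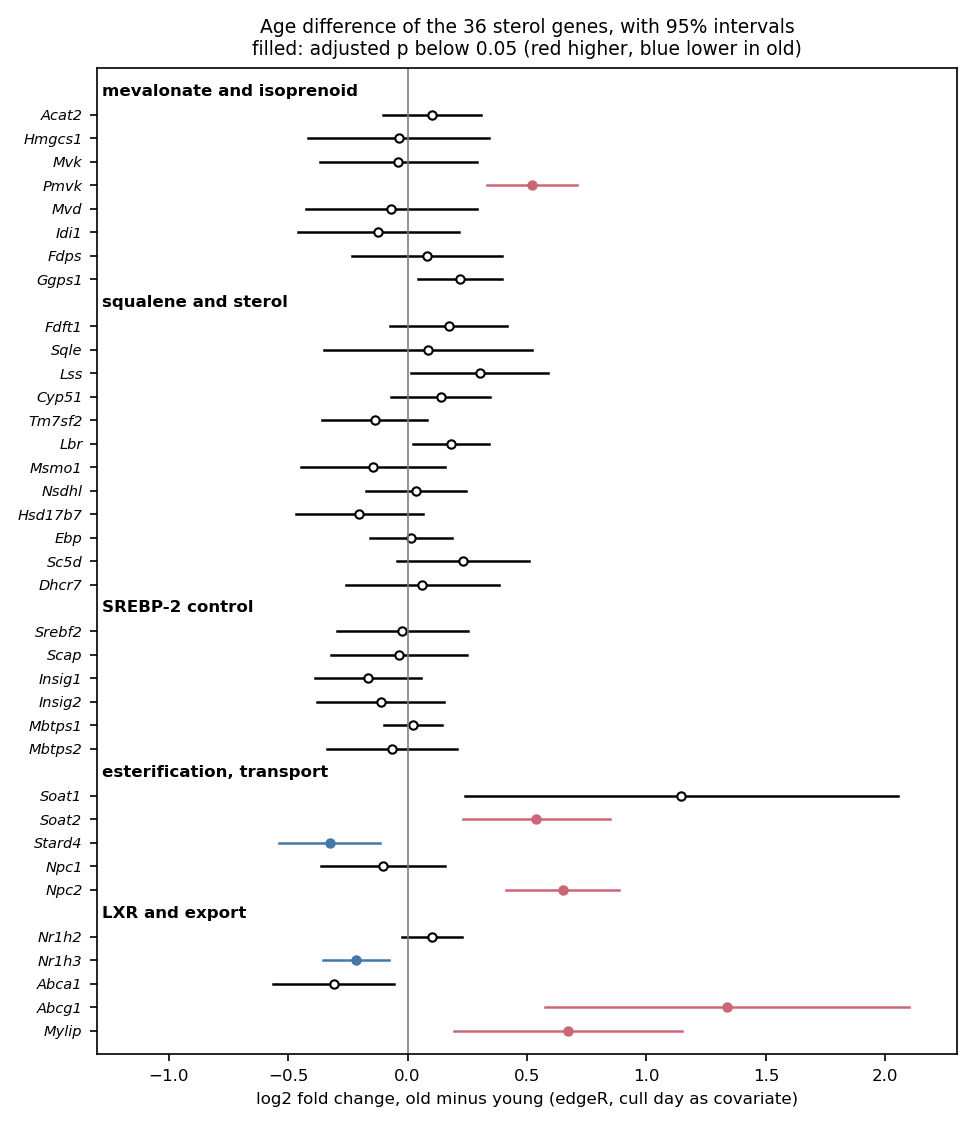
Log2 fold change (old minus young) of each of the 36 genes by role, as a point with its 95% interval from edgeR with cull day as covariate. Filled points passed an adjusted p of 0.05 (5 higher in red, 2 lower in blue), and 19 of the 20 enzymes have open points.

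Among the 8 enzymes of the mevalonate and isoprenoid arm, phosphomevalonate kinase stood alone in passing. Pmvk (chromosome 3, 89459118 to 89469009, mm10), which adds the second phosphate to mevalonate, ranged from 51.0 to 77.4 CPM in young mice (median 61.7) and from 62.3 to 109.9 CPM in old mice (median 99.6). All 9 old mice lay above the young median and 7 lay above every young mouse, while old mice 1187 and 1189 fell among the young ones. The difference of 0.52 on the log2 scale (SE 0.090, edgeR adjusted p = 0.000535) corresponds to a 1.43-fold higher level, with a 95% interval of 1.26 to 1.63. It was 0.42 on the first cull day (edgeR adjusted p = 0.113) and 0.64 on the second (edgeR adjusted p = 0.00119). Without young mice 1184, 1186 and 1188 the change was 0.53, and without old mouse 1187 it was 0.56.

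The other 7 enzymes of this arm had log2 fold changes from -0.12 (Idi1) to 0.22 (Ggps1). Hmgcs1, the cytosolic synthase that condenses acetyl-CoA with acetoacetyl-CoA and a classical SREBP-2 target, ranged from 290 to 1050 CPM in young mice (median 453) and from 318 to 720 CPM in old mice (median 530). The old mice sat wholly inside the young range. The log2 fold change was -0.04 (SE 0.18, edgeR adjusted p = 0.893), and the 95% interval of the fold ran from 0.75 to 1.27. Without young mice 1184, 1186 and 1188 the estimate was 0.26 (edgeR adjusted p = 0.225). Ggps1, which makes the geranylgeranyl group for protein prenylation, came closest to the threshold after Pmvk (0.22, SE 0.083, edgeR adjusted p = 0.0515). It passed with library totals alone as scaling (0.27, edgeR adjusted p = 0.0388) and with a filter of 1 CPM in 9 libraries (0.23, edgeR adjusted p = 0.0422). Without young mice 1184, 1186 and 1188 it was 0.15 (edgeR adjusted p = 0.229), and with old mouse 1187 also left out 0.14 (edgeR adjusted p = 0.282). The intervals of the fold for Acat2, Mvk, Mvd, Idi1 and Fdps reached no lower than 0.73 and no higher than 1.31. Acat2 supplies acetoacetyl-CoA, Mvk and Mvd act before and after Pmvk, Idi1 isomerises the isoprenoid unit and Fdps joins the units to farnesyl diphosphate. Per kilobase of exon, the median CPM over all libraries was highest for Fdps (229) and Hmgcs1 (137) and lowest for Ggps1 (1.18). The transcript listed for Mvd carries a noncoding RefSeq accession.

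Promoter sequences bear on how this arm is controlled, since SREBP-2 binds sterol regulatory elements and commonly acts beside the CCAAT-binding factor NF-Y. RefSeq promoters (GRCm38.p6, 250 bases before to 50 after the start site) were matched for 29 of the 36 genes. The element TCACNCCAC, searched on both strands, was found in 1 of 17 enzyme promoters, that of Hmgcs1, and in 1.44% of all 27025 genes with a promoter. The NF-Y box CCAAT, also searched on both strands and not overlapping the other motif, was found in 16 of 17 enzyme promoters (94.1%), in 6 of 12 promoters of the remaining roles (50%) and in 41.1% of all genes. The 250 bases before the start site of Hmgcs1 (chr13:119690101-119690350, + strand) are shown because they hold both motifs, and those of Mvk (chr5:114444019-114444268, + strand) because Mvk held the most NF-Y boxes of any enzyme, 5. Mvk was chosen after the search. Capitals mark the element at position -137 of Hmgcs1 (first base, counted back from the start site) and the NF-Y boxes, which read ATTGG on the reverse strand.
Hmgcs1: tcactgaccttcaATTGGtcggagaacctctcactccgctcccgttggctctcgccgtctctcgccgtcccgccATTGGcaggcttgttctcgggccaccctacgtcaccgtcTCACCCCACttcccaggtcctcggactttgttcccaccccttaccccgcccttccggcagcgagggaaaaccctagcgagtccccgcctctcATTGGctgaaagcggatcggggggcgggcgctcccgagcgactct
Mvk: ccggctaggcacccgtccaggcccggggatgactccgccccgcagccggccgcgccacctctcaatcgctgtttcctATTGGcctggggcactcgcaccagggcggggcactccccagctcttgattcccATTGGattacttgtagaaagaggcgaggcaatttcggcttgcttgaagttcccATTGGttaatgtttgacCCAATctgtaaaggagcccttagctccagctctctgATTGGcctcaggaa
Within the bases shown the boxes of Hmgcs1 begin at -237, -176 and -45, and those of Mvk at -173, -120, -67, -50 and -14. A further box of Hmgcs1 begins at position 10 after the start site, outside the bases shown. A match is a stretch of letters and not a measured binding site. Neither gene passed the age test.

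None of the 12 enzymes from squalene to cholesterol passed the edgeR threshold (0 of 12, beside 30.9% of all genes). At an unadjusted p under 0.05, 2 of the 12 were counted, beside 5193 of all 12269 genes tested. By contrast, limma-voom with sample weights called 5 (Fdft1, Lss, Cyp51, Lbr and Sc5d), beside 32.6% of all genes. Lbr, a nuclear envelope protein that also has sterol C14-reductase activity, had the smallest p. It ranged from 9.17 to 13.5 CPM in young mice (median 10.9) and from 10.2 to 17.2 CPM in old mice (median 11.5), with 3 old mice above every young mouse. The difference was 0.18 on the log2 scale (SE 0.076, edgeR adjusted p = 0.0761). Without old mouse 1187, the highest, it was 0.14 (edgeR adjusted p = 0.166). Without young mice 1184, 1186 and 1188 it was 0.17 (edgeR adjusted p = 0.192). Lss, which closes squalene epoxide into lanosterol, had the next smallest p. It ranged from 47.4 to 103.1 CPM in young mice (median 70.6) and from 59.3 to 130.5 CPM in old mice (median 84.7). The estimate was 0.30 on the log2 scale (SE 0.14, edgeR adjusted p = 0.0989), with a 95% interval of 0.02 to 0.59. Without old mouse 1187 Lss passed at 0.36 (edgeR adjusted p = 0.0484).

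Sqle, the oxygenase of squalene and a rate-controlling step, ranged from 70.2 to 229.5 CPM in young mice (median 111.3) and from 64.1 to 201.8 CPM in old mice (median 132.2). The 2 ages covered nearly the same span, and the log2 fold change was 0.09 (SE 0.21, edgeR adjusted p = 0.781). Without young mice 1184, 1186 and 1188 it was 0.42 (edgeR adjusted p = 0.124), and without all 4 libraries that stand apart 0.44 (edgeR adjusted p = 0.105). With all libraries its interval was the widest among the enzymes, from 0.79-fold to 1.43-fold. The 5 enzymes Cyp51, Msmo1, Nsdhl, Hsd17b7 and Ebp, which strip methyl groups from lanosterol and shift its double bond, had log2 fold changes from -0.20 (Hsd17b7) to 0.14 (Cyp51). The late enzymes Sc5d and Dhcr7, which shape the final ring double bonds, had 0.23 and 0.06, and the second C14-reductase gene Tm7sf2 had -0.14. Fdft1, squalene synthase, had 0.17, and its gene overlaps the lysosomal protease gene Ctsb by 773 bases on the opposite strand. Ctsb was at a median of 644 CPM and 0.39 higher on the log2 scale (edgeR adjusted p = 0.0129), and since the strand setting of the counting is not given in the sources used here, the value of Fdft1 is uncertain. Lss overlaps the antisense gene 4930483K19Rik (median 4.03 CPM) and is uncertain in the same way.

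Enzyme levels also varied among mice of the same age. From the lowest to the highest library Hmgcs1 varied 3.62-fold among young and 2.27-fold among old mice, and Sqle 3.27-fold and 3.15-fold. Without young mice 1184, 1186 and 1188 Hmgcs1 ranged from 290 to 528 CPM in young mice. The lowest old value of Sqle was 64.1 CPM in mouse 1183, and the next was 101.0 CPM in mouse 1242. The median SD of log2 CPM, taken within age and cull day, was 0.29 for the 20 enzymes, 0.29 for the 16 remaining genes and 0.24 for all genes tested. In the same order the median size of the age difference was 0.13, 0.19 and 0.19. Young mouse 1186 held the highest level of all libraries for 10 of the 20 enzymes, and old mouse 1183 the lowest for 6. Old mouse 1185 was among the 5 highest libraries for 15 enzymes. Young mice 1237, 1243 and 1244 of the second cull day were among the 5 lowest for 15, 13 and 14. High and low libraries thus occurred in both ages.

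**Figure D2:**
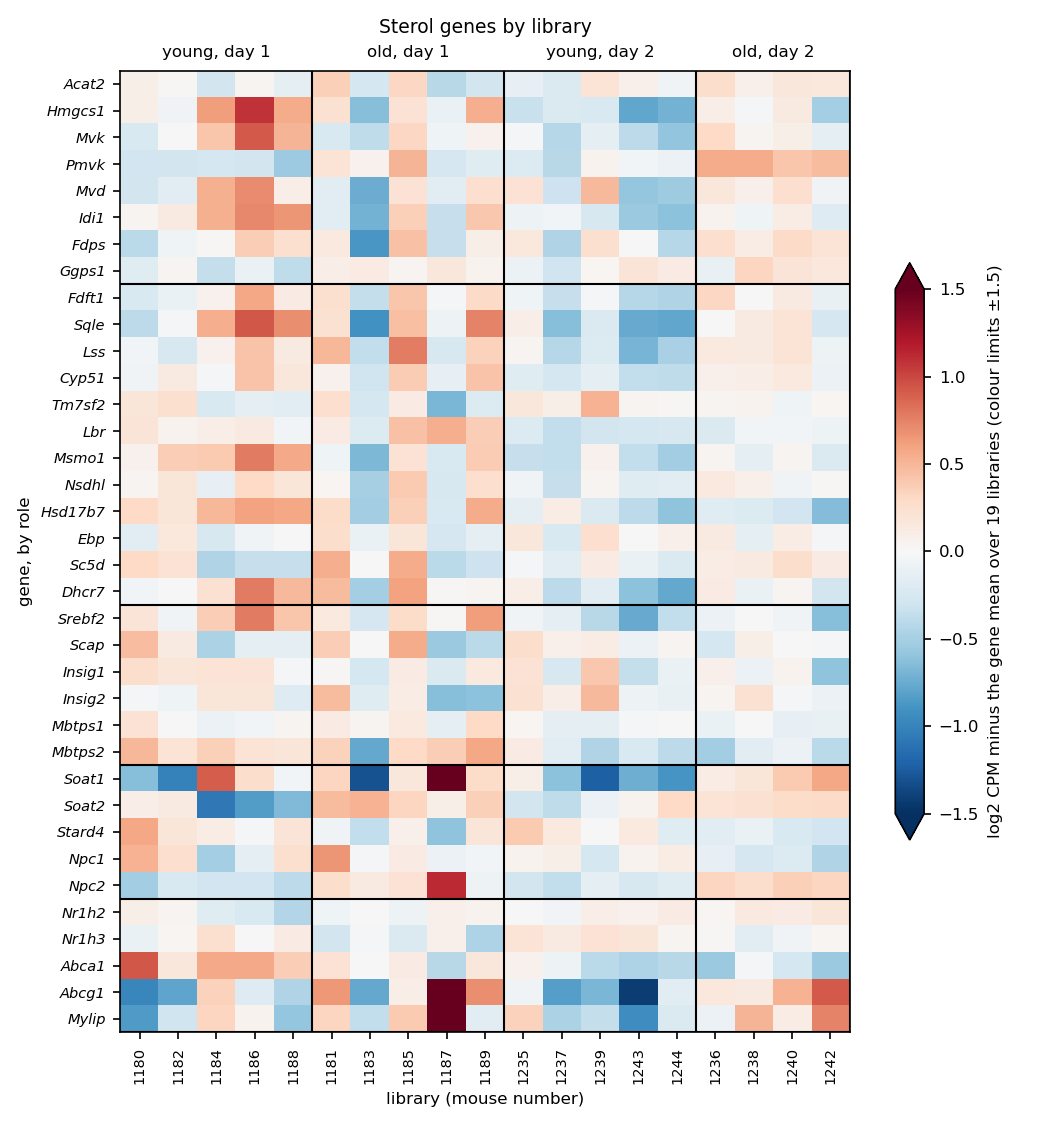
Log2 CPM of the 36 genes (rows, by role) in the 19 libraries (columns, by cull day and age), each row centred on its mean, with colours limited at ±1.5. Young mouse 1186 is high and old mouse 1183 low over most enzyme rows, and old mouse 1187 is high for Soat1, Npc2, Abcg1 and Mylip.

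Within each cull day the enzymes gave different estimates of the age difference, although the test of the difference between the days called none of them. On the first cull day 12 of 20 were lower in old mice (median log2 fold change -0.10, 0.01 over all genes), and on the second 17 of 20 were higher (median 0.25, -0.01 over all genes). Both held for 10 of the 20 enzymes, against 10.7% of all genes, a count made after these values were seen. Alone, the first cull day called 0 enzymes (3.67% of all genes passed) and the second called 3, Pmvk, Lss and Cyp51 (19.3% of all genes passed). Hmgcs1 ranged from 479 to 1050 CPM in young mice and 318 to 720 CPM in old mice on the first cull day, and from 290 to 427 CPM in young mice and 349 to 544 CPM in old mice on the second. For this gene the young mice differed more between the days than the old mice did. The age difference of Hmgcs1 on the log2 scale was -0.41 on the first day and 0.38 on the second, an interaction of 0.80 (SE 0.32, edgeR adjusted p = 0.708).

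No gene passed the test of that interaction (0 of 12269 in edgeR, 0 also with DESeq2 size factors), and 6.51% had an unadjusted p under 0.05. Among the enzymes this held for 4 of 20, with interactions of 0.80 for Mvk, 0.74 for Idi1, 0.71 for Msmo1 and 0.80 for Hmgcs1, and a smallest adjusted p of 0.650. The 3 young libraries that stand apart were all from the first cull day. Hmgcs1 stood at 727 to 1050 CPM in them and at 528 and 479 CPM in young mice 1180 and 1182 of that day. Without the 3 libraries the interaction of Hmgcs1 was 0.30 and the median over enzymes fell from 0.30 to 0.13, while the number of enzymes with an interaction above 0 went from 16 to 18. There 0 of 20 enzymes had an unadjusted p under 0.05, but the 6.51% of all genes given above belongs to the fit with all libraries. In the same setting 17 of 20 enzymes were positive for age (median 0.17) in place of 13. Over all genes 48.8% were positive there (median -0.0082), in place of 49.6%. Of the enzymes 2 passed, Pmvk and Fdft1 (27.2% of all genes passed). Estimates then grew for Fdps (0.24), Fdft1 (0.32), Lss (0.42), Cyp51 (0.22), Dhcr7 (0.25) and Nsdhl (0.07) as for Sqle, and for Tm7sf2 (-0.23). They shrank for Hsd17b7 (-0.097), Sc5d (0.090), Ggps1 (0.15), Acat2 (0.079) and Lbr (0.17), and some enzymes near 0 changed sign. Of these, Fdft1 was the one that passed (edgeR adjusted p = 0.0426), with Lss just over the threshold (edgeR adjusted p = 0.0509). With old mouse 1187 also left out 3 passed (28.3% of all genes), and with that mouse alone left out 2 passed (24.5% of all genes). Cholesterol synthesis follows the time of day in liver, and the labels give no hour of sampling. Of 13 clock genes tested 1 was higher and 6 were lower in old mice (16.3% and 14.5% of all genes), and without young mice 1184, 1186 and 1188 the counts were 0 and 8. Their part in the enzyme levels was not tested.

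**Figure D3:**
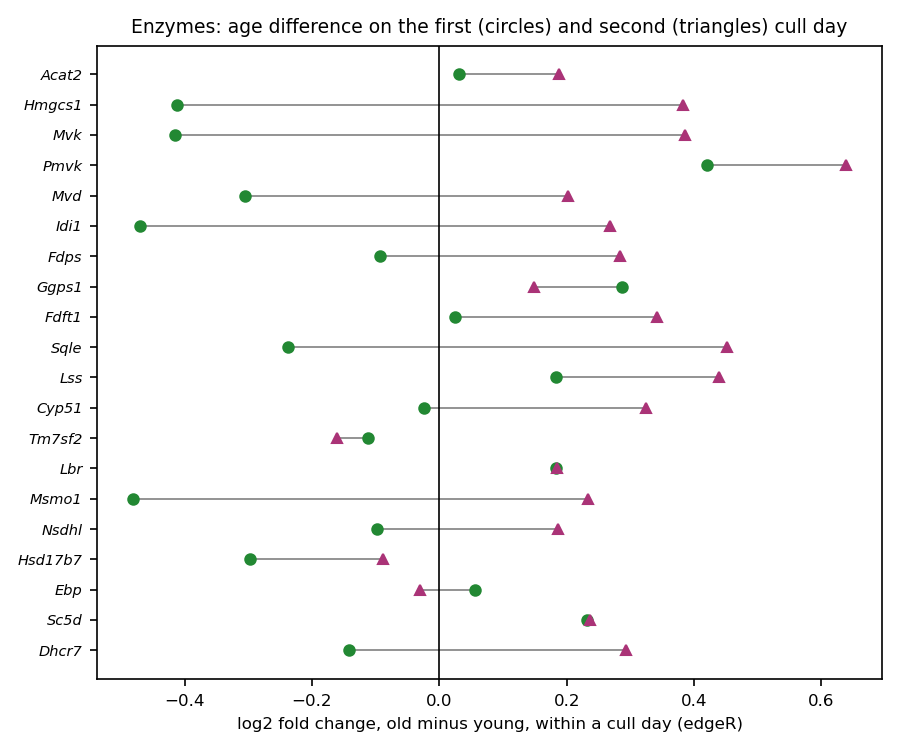
Log2 fold change (old minus young) of the 20 enzymes fitted within the first cull day (circles) and within the second (triangles). For 10 enzymes the circle lies below 0 and the triangle above it, with the widest gaps for Mvk and Hmgcs1.

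The genes that set SREBP-2 activity showed no difference by age at the threshold, with 0 of 6 called in edgeR, DESeq2 or weighted limma-voom. Over all genes edgeR called 30.9%, DESeq2 33.7% and weighted limma-voom 32.6%. In edgeR 0 of the 6 had an unadjusted p under 0.05, beside 5193 of all 12269 genes tested. Whether so small a set differs from all genes was not tested. Srebf2, which encodes SREBP-2, ranged from 29.5 to 85.6 CPM in young mice (median 47.8) and from 32.0 to 76.8 CPM in old mice (median 49.6). The age difference was -0.02 on the log2 scale (SE 0.13, edgeR adjusted p = 0.915), with a fold between 0.81 and 1.19, and it was 0.14 without young mice 1184, 1186 and 1188 (edgeR adjusted p = 0.476). Insig1, the retention protein whose own gene is an SREBP target, had the smallest p of the 6. It ranged from 311 to 527 CPM in young mice (median 454) and from 262 to 442 CPM in old mice (median 403), so that none of the 9 old mice reached the young median. Its log2 fold change was -0.17 (SE 0.11, edgeR adjusted p = 0.247), with a fold between 0.76 and 1.04.

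For Insig2, the second retention protein, the estimate was -0.11, and Scap, the escort, -0.04 (-0.18 without young mice 1184, 1186 and 1188). The protease genes Mbtps1 and Mbtps2 had 0.02 and -0.07, and Mbtps1 varied least of all 36 genes, by 1.37-fold over the libraries. Per kilobase of exon the order of median CPM was Insig1 (156), Insig2 (105), Scap (33.4), Mbtps1 (13.7), Srebf2 (10.6) and Mbtps2 (1.65). The ratio of Insig1 to Insig2 per kilobase had a median of 1.44 in young and 1.43 in old mice, over 0.99 to 2.41 in single libraries. Mbtps2 overlaps Yy2 on the same strand by 2867 bases (Yy2 median 0.72 CPM), which leaves the value of Mbtps2 uncertain.

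Sterol esterification and transport gave 3 of 5 genes past the threshold, 2 higher and 1 lower, beside 30.9% of all genes. Npc2 (chromosome 12, 84754559 to 84773112), the soluble lysosomal protein that hands cholesterol to NPC1, ranged from 59.5 to 77.4 CPM in young mice (median 70.4) and from 80.7 to 185.0 CPM in old mice (median 102.5). Every old mouse lay above every young mouse, which was the case for 1 of the 36 genes and, in either direction, for 1.72% of all genes. In log2 units the rise was 0.65 (SE 0.11, edgeR adjusted p = 0.000579), 0.73 on the first cull day (edgeR adjusted p = 0.0635) and 0.56 on the second (edgeR adjusted p = 0.000672). Without old mouse 1187, the highest, it was 0.51 (edgeR adjusted p = 1.63e-05), and without young mice 1184, 1186 and 1188 it was 0.63 (edgeR adjusted p = 0.00556). Old mouse 1183 held the fewest macrophage marker counts of all libraries (67.96 CPM), but 100.4 CPM of stellate markers, where young mice held 39.0 to 105.5 CPM. It had 93.4 CPM of Npc2, above every young mouse. For its membrane partner Npc1 the estimate was -0.10 (SE 0.12, edgeR adjusted p = 0.549), with -0.20 to -0.053 when single libraries were left out and -0.26 without young mice 1184, 1186 and 1188 (edgeR adjusted p = 0.0854). It is uncertain because Npc1 overlaps 3110002H16Rik on the opposite strand by 276 bases. The ratio of Npc2 to Npc1 per kilobase had a median of 1.37 in young mice (0.83 to 1.98) and 2.31 in old mice (1.29 to 3.91). Fewer cells of a type and less RNA per cell cannot be told apart in these bulk samples.

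Soat2 (chromosome 15, 102150575 to 102163436), the cholesterol-esterifying enzyme of hepatocytes, ranged from 17.1 to 44.4 CPM in young mice (median 31.8) and from 38.3 to 51.8 CPM in old mice (median 43.9). Young mice 1184, 1186 and 1188 were lowest, at 17.1 to 22.7 CPM, and the other 7 young mice lay at 27.6 to 44.4 CPM. Its log2 fold change was 0.54 (SE 0.15, edgeR adjusted p = 0.0109), and without those 3 libraries it was 0.28 (edgeR adjusted p = 0.0354). On the cull days alone it was 0.75 and 0.31, neither past the threshold (edgeR adjusted p = 0.0856 and 0.0980).

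Soat1, the esterifying enzyme of macrophages and many other cells, ranged from 0.77 to 3.39 CPM in young mice (median 1.17) and from 0.73 to 16.1 CPM in old mice (median 2.19). Old mouse 1187 was far above the rest, where the highest were 2.69 CPM in an old and 3.39 CPM in a young mouse. The log2 fold change was 1.15 (SE 0.43, edgeR adjusted p = 0.0507) and 0.43 without that mouse (edgeR adjusted p = 0.259). With DESeq2 it was 1.14 and passed (adjusted p = 0.0256). The fit of the second cull day alone, which does not hold old mouse 1187, gave 0.93 and also passed (edgeR adjusted p = 0.0210), and that of the first gave 1.31 (edgeR adjusted p = 0.279). With old mouse 1187 and the 3 young libraries all left out it was 0.88 and passed (edgeR adjusted p = 0.0105). The ratio of Soat2 to Soat1 per kilobase was 5.36 in old mouse 1187 and 36.9 to 160.8 in the other old mice, and 11.4 to 102.3 in young mice.

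Stard4 (chromosome 18, 33199138 to 33213862), a soluble carrier that moves cholesterol between membranes and is itself regulated by sterols, was lower in old mice. It ranged from 101.3 to 171.4 CPM in young mice (median 126.5) and from 75.3 to 130.2 CPM in old mice (median 102.3). The ranges overlapped, with 4 of 9 old mice below every young mouse. In log2 units it fell by 0.33 (SE 0.10, edgeR adjusted p = 0.0212), with -0.34 and -0.30 on the cull days, neither past the threshold alone (edgeR adjusted p = 0.215 and 0.0775). Without young mice 1184, 1186 and 1188 it was -0.39, and without old mouse 1187 -0.28, both past the threshold (edgeR adjusted p = 0.0241 and 0.0309).

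**Figure D4:**
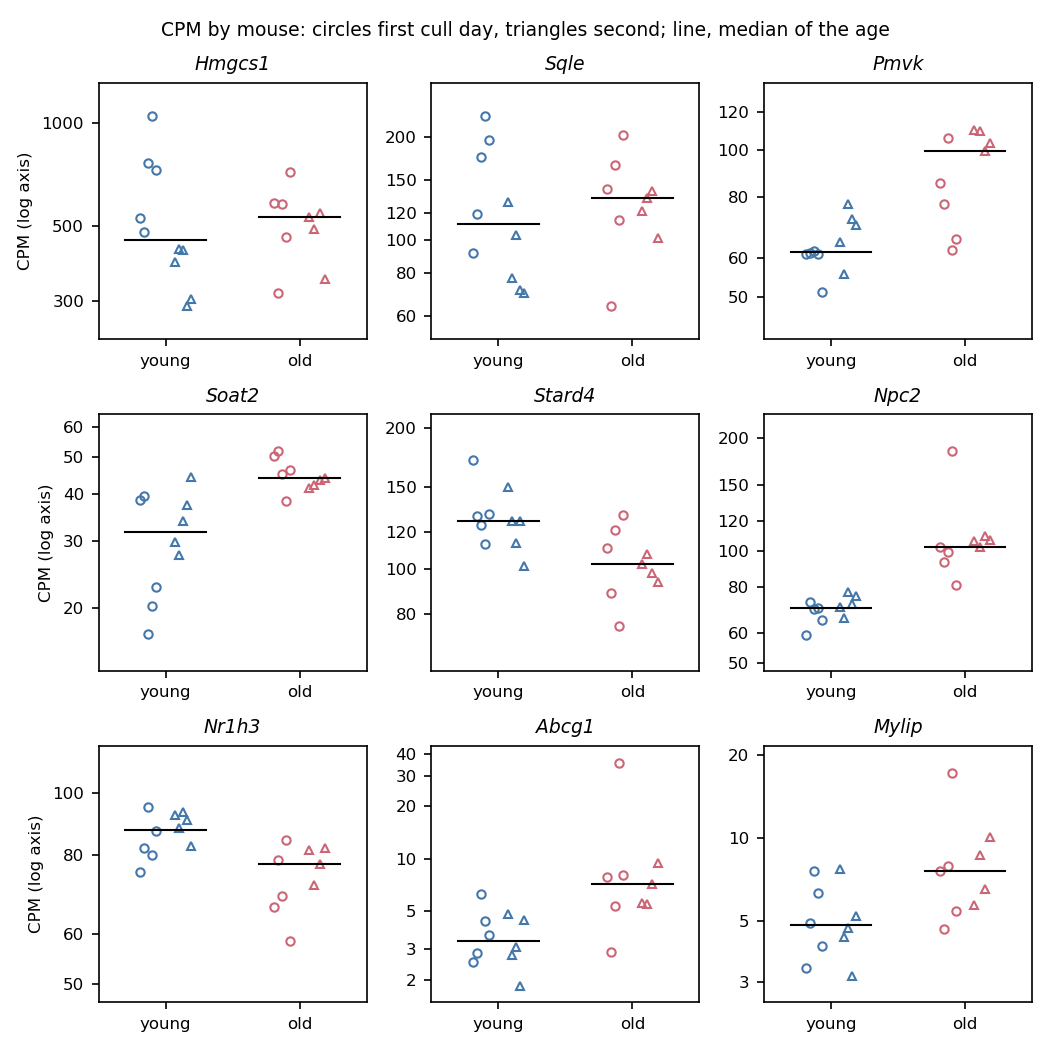
CPM of 9 genes in each mouse on log axes, young in blue and old in red, circles for the first cull day and triangles for the second, with a line at the median of each age. Npc2 shows no overlap between ages, Hmgcs1 and Sqle overlap throughout, and the 3 lowest young values of Soat2 are mice 1184, 1186 and 1188.

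Of the LXR group 3 of 5 genes passed, 2 higher and 1 lower, beside 30.9% of all genes. Nr1h3 (chromosome 2, 91184061 to 91195116) encodes LXR alpha, the main form in liver. It ranged from 75.2 to 95.1 CPM in young mice (median 87.7) and from 58.4 to 84.5 CPM in old mice (median 77.4). None of the 9 old mice reached the young median, and 4 lay below every young mouse. The log2 fold change was -0.22 (SE 0.066, edgeR adjusted p = 0.0187), and the call was lost with library totals alone as scaling (-0.17, edgeR adjusted p = 0.149) and without young mice 1184, 1186 and 1188 (-0.18, edgeR adjusted p = 0.0858). On the cull days alone it was -0.24 and -0.19 (edgeR adjusted p = 0.205 and 0.0912). Nr1h2, which encodes LXR beta, had 0.10 (SE 0.060, edgeR adjusted p = 0.203) and 0.016 without those 3 libraries. The ratio of Nr1h3 to Nr1h2 per kilobase was 3.01 to 5.04 in young mice (median 3.78) and 2.4 to 3.41 in old mice (median 3.08).

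Abcg1 (chromosome 17, 31057694 to 31117981), an LXR target that exports sterol and is abundant in macrophages, ranged from 1.86 to 6.29 CPM in young mice (median 3.35) and from 2.91 to 35.7 CPM in old mice (median 7.14). Old mouse 1187 was highest by far, the next old mouse stood at 9.39 CPM, and 5 of 9 old mice were above every young mouse. The log2 fold change was 1.34 (SE 0.36, edgeR adjusted p = 0.0109), 1.59 on the first cull day (edgeR adjusted p = 0.132) and 1.02 on the second (edgeR adjusted p = 0.0165). Without old mouse 1187 it was 0.81 and still passed (edgeR adjusted p = 0.0139), as it did at 1.43 without young mice 1184, 1186 and 1188 (edgeR adjusted p = 0.0343). Mylip (chromosome 13, 45389742 to 45411940), the LXR-induced ubiquitin ligase that marks lipoprotein receptors for degradation, ranged from 3.17 to 7.70 CPM in young mice (median 4.84) and from 4.68 to 17.3 CPM in old mice (median 7.58). The ranges overlapped and old mouse 1187 was again highest. Its log2 fold change was 0.67 (SE 0.23, edgeR adjusted p = 0.0327), and without that mouse it was 0.45 and did not pass (edgeR adjusted p = 0.0791). It passed without young mice 1184, 1186 and 1188 (0.78, edgeR adjusted p = 0.0430) and without all 4 libraries (0.62, edgeR adjusted p = 0.0223).

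Abca1, the LXR target that loads cholesterol onto nascent high-density lipoprotein, went the other way from Abcg1 in its estimate, at -0.31 (SE 0.12, edgeR adjusted p = 0.0589). It passed with DESeq2 (-0.32, adjusted p = 0.0343) and with no filter in edgeR (-0.34, adjusted p = 0.0424). It did not pass with weighted limma-voom (-0.20, adjusted p = 0.154). Nor did it pass without young mice 1184, 1186 and 1188 (-0.28, edgeR adjusted p = 0.152) or without old mouse 1187 (-0.25, edgeR adjusted p = 0.102). On the first cull day it was -0.50 (edgeR adjusted p = 0.0944) and on the second -0.085 (edgeR adjusted p = 0.732). It ranged from 98.8 to 259.8 CPM in young mice (median 147.5) and from 92.4 to 157.4 CPM in old mice (median 133.7), and the ages overlapped. The ratio of Abca1 to Abcg1 per kilobase was 13.0 to 58.4 in young mice (median 26.2), and 5.61 to 26.5 in the old mice other than 1187, which had 1.62.

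Soat1, Abcg1, Mylip and Npc2 were each highest in old mouse 1187, the library with the most macrophage marker counts. There they stood at 16.1, 35.7, 17.3 and 185.0 CPM, with 3313 CPM of the 12 markers. That library also held the most endothelial (589.5 CPM), stellate (375 CPM), T and natural killer cell (15.8 CPM) and B cell (12.1 CPM) marker counts. In old mouse 1183, with the lowest macrophage marker sum, Soat1, Abcg1 and Mylip stood at 0.73, 2.91 and 4.68 CPM, the lowest of the old mice. Its endothelial and stellate sums (175.3 and 100.4 CPM) were the lowest of the old mice too. Among young mice the macrophage marker sum was highest in mouse 1184 (486 CPM), where Soat1 and Abcg1 were highest too at 3.39 and 6.29 CPM. Mylip was at 7.60 CPM there and highest in mouse 1235 at 7.70 CPM. The lowest young sum was in mouse 1180, whereas Abcg1 and Mylip were lowest in mouse 1243 (1.86 and 3.17 CPM) and Soat1 in mouse 1239. No macrophage marker was at 0 in all libraries. The part of macrophage, endothelial or stellate cell RNA in the age differences of these genes and of Soat2 and Pmvk was not tested, and the values of Npc2 in old mouse 1183 and without old mouse 1187 are given above.

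**Figure D5:**
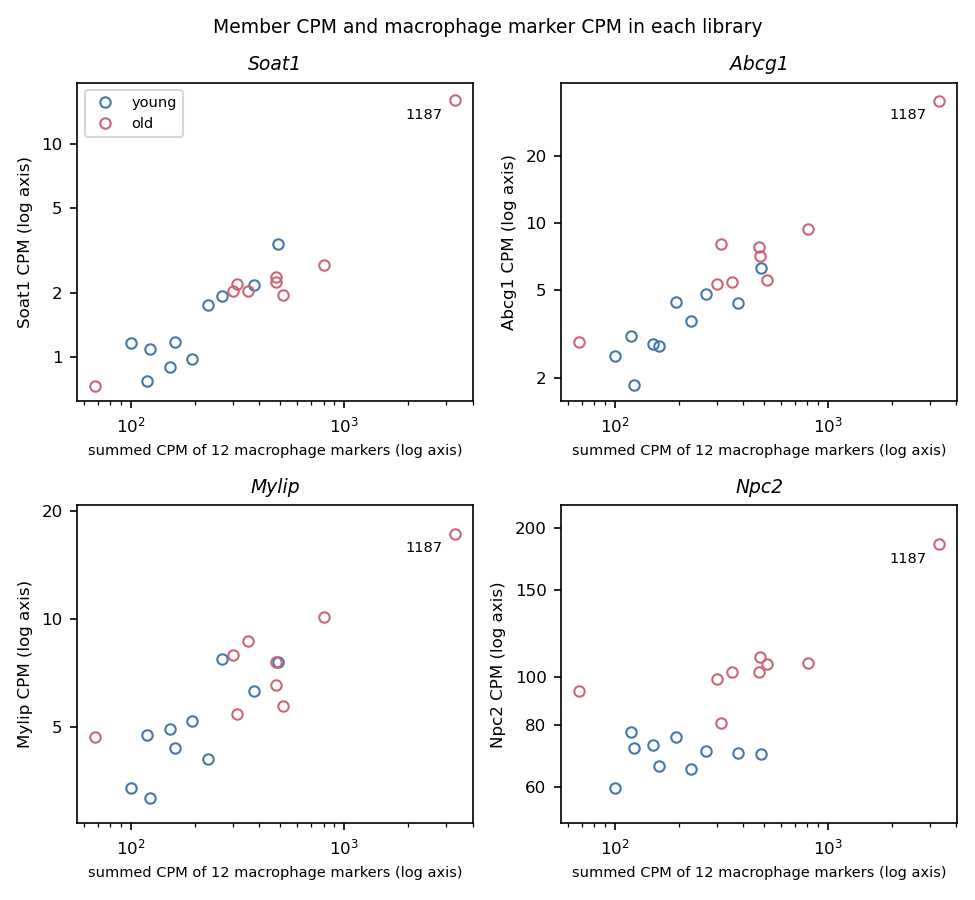
CPM of Soat1, Abcg1, Mylip and Npc2 (vertical, log axis) against the summed CPM of 12 macrophage markers (horizontal, log axis) in each of 19 libraries, young in blue and old in red. Old mouse 1187 lies at the upper right of each panel at 3313 CPM of markers, and for Npc2 every old mouse lies above every young mouse.

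Genes next to these in the pathway were taken from 4 lists, of 39 genes in all, of which 38 were tested and 9 passed (3 higher and 6 lower), 23.7% against the 30.9% of all genes. Of 13 genes that use isoprenoids, 2 were lower and 0 higher (14.5% and 16.3% of all genes). Pdss2, a subunit of the enzyme that makes the tail of coenzyme Q, had -0.31 (SE 0.084, edgeR adjusted p = 0.0113), and Nus1, a subunit of the dolichol-making transferase, -0.19 (SE 0.057, edgeR adjusted p = 0.0154). The farnesyl and geranylgeranyl transferase subunits Fnta, Fntb, Pggt1b, Rabggta and Rabggtb did not pass, with -0.18 (Pggt1b) to 0.04 (Rabggtb).

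Of 10 genes for sterol sensing and sterol-dependent degradation at the endoplasmic reticulum, 1 was higher and 2 lower, together 30%, which is near the 30.9% of all genes. Vcp, the ATPase that extracts ubiquitinated proteins from that membrane, had -0.23 (SE 0.058, edgeR adjusted p = 0.00643), and Rnf145, a sterol-responsive ubiquitin ligase, 0.35 (SE 0.11, edgeR adjusted p = 0.0184). Tmem97, a sterol-binding membrane protein named after its value was seen, had -0.21. Of 10 tested genes of sterol traffic, 1 was higher and 2 lower, again 30%. Gramd1a, a carrier of plasma membrane cholesterol to the endoplasmic reticulum, had 0.34 (SE 0.079, edgeR adjusted p = 0.00426), and the oxysterol-binding protein relative Osbpl2 -0.17 (SE 0.050, edgeR adjusted p = 0.0184). Osbp, also named after its value was seen, had -0.29.

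Of 5 further LXR targets, 1 was higher (16.3% of all genes). Pltp, the phospholipid transfer protein of plasma lipoproteins, rose from a median of 97.4 to 176.2 CPM (log2 fold change 1.04, SE 0.35, edgeR adjusted p = 0.0322). Fitted within a cull day the estimate was 1.59 for the first and 0.42 for the second, neither past the threshold (edgeR adjusted p = 0.103 and 0.292). Young mouse 1188 was lowest at 27.2 CPM, and without young mice 1184, 1186 and 1188 the estimate was 0.53 and did not pass (edgeR adjusted p = 0.162). The canalicular sterol exporter genes Abcg5 and Abcg8 had 0.31 and 0.21, the phospholipid-remodelling gene Lpcat3 0.18 and Srebf1, the gene of SREBP-1, 0.02, none of them past the threshold. Without the same 3 libraries they were 0.13, 0.014, 0.021 and -0.20. Of the neighbouring genes named, Nus1 (-0.15), Tmem97 (-0.18) and Osbp (-0.28) also lost their calls without young mice 1184, 1186 and 1188 (edgeR adjusted p = 0.0935, 0.108 and 0.0801). Tmem97 lost its call without old mouse 1187 alone as well (-0.18, edgeR adjusted p = 0.0721), and Rnf145 without all 4 libraries (0.32, edgeR adjusted p = 0.0630).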

How the data were processed

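The authors deposited 1 table of estimated counts per gene, multiples of 0.5, of which 29.2% of cells were not whole. Per the file headers, HOMER's analyzeRepeats.pl counted reads in exons on mm10 (GRCm38), condensed to genes and left raw. STAR and HOMER are named in the submitters' processing notes. Versions, strand setting and multiple matches are not given in the sources used here. Per the labels, RNA was extracted with Trizol and chloroform and the library was stranded and paired-end. Genes held 78.3% to 86.5% of the total in each column name.

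Counts were rounded to whole numbers, ties to even. The tests had been written for plain counts and were kept. edgeR 4.0.16 (R 4.3.3) used TMM, filterByExpr (minimum count 10), quasi-likelihood tests with cull day as covariate, and Benjamini-Hochberg adjustment over all 12269 genes tested. SEs are the log2 fold change over the root of F. The procedure was tested on simulated data. Alternatives used DESeq2 1.42.0, limma 3.58.1 (voom with sample weights), other scalings, filters and sets of libraries. Member genes and lists were chosen with earlier results of these data known. All members may be named. Values are given in full for those past the threshold and for the smallest p in each role, and neighbouring genes are named by the 2 smallest p past the threshold in each list. Coordinates are the table's, counted from 1. Figures used Python 3.11.15 and matplotlib 3.10.9.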

Additional observations from a re-analysis of the deposited data

Results flagged for a closer look

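In each age, the highest and lowest CPM of every gene were compared with their nearest neighbour by Dixon's ratio of the gap to the range. Of 72 groups tested, 7 held a library past the 95% value, where chance gives about 1 in 20. Old mouse 1187 accounted for 4 of them. It had 16.1 CPM of Soat1 (next 2.69), 35.7 CPM of Abcg1 (next 9.39), 17.3 CPM of Mylip (next 10.1) and 185.0 CPM of Npc2 (next 109.5), with 3313 CPM of macrophage markers. Old mouse 1181 had 126.5 CPM of Npc1, against 86.9 in the next old mouse. Young mouse 1186 had 273 CPM of Fdft1, against 198.9 in the next young mouse. Young mouse 1180 had 67.0 CPM of Mbtps1, against 59.3 in the next young mouse.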

How the results depend on the processing

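Of the 7 calls, none changed direction in any setting tried. None of the 7 passed on the first cull day alone, and Pmvk, Npc2 and Abcg1 passed on the second alone. Mylip also lost its call without old mouse 1187, 1242 or young mouse 1180, 1188, 1237 or 1243 (0.45 to 0.76 over all leave-one-out fits). The cause was not tested.

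The count of enzymes past the threshold (1) was 0 on the first cull day alone and 3 on the second, 2 with library totals alone, 2 with a filter of 1 CPM in 9 libraries, 7 with limma-voom and sample weights, 2 without old mouse 1187, 2 without young mice 1184, 1186 and 1188, and 3 without all 4 libraries, a setting added after seeing the data. Leaving out each library gave 1 to 3, with 3 without old mouse 1183 and 2 without old mouse 1187 or 1236 or young mouse 1182, 1243 or 1244. The count in the remaining roles (6) was 0 on the first cull day, 3 on the second and 5 to 8 in the other settings. Over all genes the main fit called 3785, library totals alone 3267, the filter of 1 CPM in 9 libraries 3332 and weighted limma-voom 4005. The first cull day called 450 of all genes and the second 2389, with fewer libraries in each. The median of all genes moved by less than 0.1 between scalings. The interaction called 0 to 1 genes in leave-one-out fits (1 without young mouse 1180 or 1182).

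Members near 0 changed sign. On the second cull day alone the log2 fold changes were 0.38 for Hmgcs1, 0.39 for Mvk, 0.20 for Mvd, 0.27 for Idi1, 0.23 for Msmo1, -0.030 for Ebp, 0.15 for Srebf2 and -0.029 for Mbtps1. On the first they were -0.093 for Fdps, -0.24 for Sqle, -0.024 for Cyp51, -0.098 for Nsdhl, -0.14 for Dhcr7, 0.052 for Scap and 0.042 for Npc1. Without young mice 1184, 1186 and 1188 they were 0.26 for Hmgcs1, 0.26 for Mvk, 0.17 for Mvd, 0.11 for Idi1, 0.032 for Msmo1, -0.026 for Ebp, 0.14 for Srebf2 and -0.028 for Mbtps1, and with old mouse 1187 also left out 0.28, 0.26, 0.18, 0.14, 0.055, -0.0075, 0.15 and -0.010. Without old mouse 1187 alone Hmgcs1 was 0.0067, Srebf2 0.0045 and Scap 0.017. Weighted limma-voom gave 0.11 for Hmgcs1, 0.11 for Mvk, 0.098 for Mvd, 0.025 for Idi1, 0.045 for Srebf2 and 0.058 for Scap. Library totals alone gave 0.00054 for Hmgcs1, 0.0050 for Mvk and 0.016 for Srebf2, and no filter gave -0.019 for Ebp and -0.010 for Mbtps1. Leave-one-out ranges that crossed 0 were -0.097 to 0.076 for Hmgcs1, -0.10 to 0.070 for Mvk, -0.13 to 0.021 for Mvd, -0.013 to 0.093 for Nsdhl, -0.026 to 0.047 for Ebp, -0.077 to 0.052 for Srebf2, -0.12 to 0.031 for Scap, -0.010 to 0.044 for Mbtps1 and -0.12 to 0.020 for Mbtps2. No paired analysis was possible because the mouse numbers are not shared between ages. Soat1, Abcg1 and Mylip lie at a few CPM, where counting error adds to the spread.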
